A study of Homo sapiens with 42 samples.

Results

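Nuclear RNA of MDA-MB-231 cells after knockdown of HNRNPC was compared with nuclear RNA of control cells, in 6 of the 42 libraries of the series, which fall into 14 groups of 3. MDA-MB-231 is an established human triple-negative breast cancer cell line, and the cells used here are the ones labelled poorly metastatic. The gHNRNPC nuclei (n = 3) carried the knockdown and the gCTRL nuclei (n = 3) the control. No drug or other treatment is labelled for either group. The agent of the knockdown, its guide sequence, the time after it and the number of clones are not given in the sources used here. Cytoplasmic RNA of the same cells, 3 gHNRNPC and 3 gCTRL libraries, entered the same fit. RNA 3′ ends were read with QuantSeq REV, which primes at the poly(A) tail, so a count gives both the level of a gene and which of its ends carried the tail. Whether the 3 libraries of a group are separate cultures is not labelled. Their spread may therefore be technical, and every p-value below is relative to that spread alone.

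HNRNPC encodes hnRNP C, an abundant nuclear protein that coats nascent transcripts and binds runs of uridines. It is known to keep the splicing factor U2AF2 off cryptic splice sites, many of them in antisense Alu elements, and to influence which polyadenylation site a transcript uses. A polyadenylation site is marked in the RNA by a short hexamer, most often AATAAA or ATTAAA in DNA letters, a little upstream of the cleavage point. A site nearer the start of the gene is called proximal, and one farther along is called distal.

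The nuclear libraries held 1.23, 1.33 and 1.49 M counts in gHNRNPC and 1.64, 1.56 and 1.41 M counts in gCTRL. Fractions differed in the direction of their labels for MALAT1, a nuclear-retained RNA, at 35.6 to 76.2 CPM in gHNRNPC nuclei and 31.7 to 67.3 CPM in gCTRL nuclei, against 3.85 to 8.68 and 4.74 to 6.49 CPM in their cytoplasm. CPM is a count divided by the library total in M counts after scaling that total by its TMM factor (0.9105 to 1.101 in nuclei). NEAT1, another nuclear-retained RNA, was at 0 to 1.9 CPM in nuclei, too low to compare. A list of 16 polyadenylated nuclear RNAs summed to 699.6 to 772.6 CPM in gHNRNPC and 693.1 to 817.0 CPM in gCTRL nuclei. In their cytoplasm it summed to 613.1 to 693.1 and 574.1 to 705.8 CPM, so the list as a whole set the fractions little apart. Mitochondrially encoded RNA took 9.42 to 10.6% of gHNRNPC and 7.33 to 8.8% of gCTRL nuclear counts but under 0.3% of any cytoplasmic library, so the nuclear fraction carried organelle RNA as well. Mesenchymal genes of this line were present (AXL at 994 to 1259 CPM in gHNRNPC and 1018 to 1045 CPM in gCTRL nuclei). The epithelial keratin KRT19 was present as well, at 626.5 to 787.4 CPM in gHNRNPC and 594.1 to 697.6 CPM in gCTRL nuclei. EPCAM, another epithelial gene, was at 3.97 to 5.96 CPM in gHNRNPC and 3.88 to 13.3 CPM in gCTRL nuclei. CDH1, ESR1, CD3E, MS4A1, PECAM1, DCN and CDH5 were at 0 to 1.32 CPM in every nuclear library. CD68, a macrophage marker that other cells also make, was the 1 marker of other cells past the filter on low counts, at 46.8, 125.5 and 59.1 CPM in gHNRNPC and 34.9, 29.8 and 29.7 CPM in gCTRL nuclei (1.29 ± 0.28, adjusted p = 0.0020, and 0.067 without gHNRNPC library 2). The 6 fibroblast and endothelial markers summed to 3.41 to 4.54 CPM in gHNRNPC and 7.12 to 21.1 CPM in gCTRL nuclei, and none passed the filter on low counts. The part of other cells in the results was not tested, and PTPRC, which marks all leukocytes, was at 0 to 0.757 CPM.

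HNRNPC itself was measured at 86.9, 116.7 and 91.6 CPM in gHNRNPC nuclei, against 439.5, 531.1 and 631.7 CPM in gCTRL nuclei. The groups did not overlap, and the log2 change was −2.44 ± 0.20 (adjusted p = 2.0e-09). The error is an approximate standard error, the size of the change divided by the square root of the edgeR F statistic. Changes below are log2 of gHNRNPC over gCTRL with that error, and adjusted p-values come from the edgeR quasi-likelihood test with Benjamini-Hochberg adjustment over all genes. Nearly all HNRNPC reads ended at one transcript end on chromosome 14 (gene at 21209136 to 21269494, GRCh38, minus strand), with 102, 146 and 119 reads in gHNRNPC and 686, 815 and 954 reads in gCTRL nuclei. Its last 30 bases (chr14:21210556-21210585, minus strand, GRCh38) are shown because they are the site by which the knockdown was read, with the polyadenylation hexamer in capitals.
HNRNPC: acaagtccttATTAAAccaggaatttggag
In bulk RNA, fewer cells with the transcript and less transcript per cell cannot be told apart.

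Of 9351 genes tested, 827 rose (8.84%) and 556 fell (5.95%) in gHNRNPC nuclei, 14.8% of all genes. The level of 2713 genes (29%) did not overlap between the 3 gHNRNPC and the 3 gCTRL libraries, called or not. The balance of rises and falls depends on the scaling. With library totals in place of TMM factors 591 rose and 770 fell, and the median of all genes moved to −0.08 from 0.04. Without gCTRL library 2 the calls numbered 878, in place of 1383.

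The largest rise with enough reads in both groups was that of DHRS2, a short-chain dehydrogenase (chromosome 14, 23630115 to 23645639), at 217.2, 266.8 and 154.4 CPM in gHNRNPC and 1.9, 3.88 and 2.64 CPM in gCTRL nuclei. The groups lay far apart (6.21 ± 0.35, adjusted p = 2.4e-12). RRAD, a small GTPase that inhibits calcium channels, had 118 reads over the gHNRNPC libraries and 3 over the gCTRL libraries, 48.6 times as many per library size (95% interval 16.2 to 239.0, counting error only). DIO2, the deiodinase that activates thyroid hormone, had 38 reads and 1 read, a ratio of 46.9 with an interval of 7.93 to 1902.3. Both genes were near the lower limit of detection in gCTRL nuclei, so the size of their rises is poorly fixed.

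Other large rises included genes of varied function. GDF15, a stress-induced cytokine of the TGF-β family (chromosome 19, 18374731 to 18389176), stood at 714.7, 643.2 and 961.5 CPM in gHNRNPC and 118.0, 131.3 and 114.9 CPM in gCTRL nuclei (2.67 ± 0.20, adjusted p = 5.4e-10). DKK1, a secreted inhibitor of Wnt signalling (3.14 ± 0.63, adjusted p = 8.7e-04), and PAPPA2, a protease of insulin-like growth factor binding proteins (2.83 ± 0.47, adjusted p = 9.7e-05), also encode secreted proteins. HES7, a transcriptional repressor of the Hairy and Enhancer of Split family, rose by 3.89 ± 0.53 (adjusted p = 1.2e-05), with 15.3, 18.3 and 17.4 CPM in gHNRNPC and 1.9, 0.647 and 0.66 CPM in gCTRL nuclei. The remaining rises among the 20 largest included BEX2 (2.89 ± 0.36, adjusted p = 2.5e-06), the long noncoding RNA LINC00941 (2.75 ± 0.45, adjusted p = 1.3e-04), NDUFAF3, an assembly factor of respiratory complex I (2.84 ± 0.55, adjusted p = 7.3e-04), and MRPS23, a mitochondrial ribosomal protein (2.68 ± 0.54, adjusted p = 9.6e-04). PLEKHG4B, ROM1 and LRRC73 rose by 2.83, 2.73 and 2.66 with under 4 CPM in every gCTRL nuclear library. UCP3 (2.61 ± 0.67, adjusted p = 0.0075) lost its call without gHNRNPC library 1 (adjusted p = 0.056). Some of the 20 rose at ends other than that of a coding transcript. PLEKHG4B reads came from an end named only by position, TRIM8 reads (3.11 ± 0.41, adjusted p = 5.5e-06) from an end annotated to nonsense-mediated decay, and those of RPL4 (3.11 ± 0.52, adjusted p = 1.4e-04) from a pair of ends named only by position.

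Among the largest falls were the transporter SLCO4A1 and its antisense RNA. SLCO4A1, which carries organic anions (chromosome 20, 62642445 to 62685785), had 209.5, 271.6 and 230.9 CPM in gHNRNPC nuclei, against 1381.2, 1201.3 and 1193.4 CPM in gCTRL nuclei (−2.41 ± 0.18, adjusted p = 7.0e-10). SLCO4A1-AS1, inside that span on the other strand, had 3.41, 7.94 and 6.06 CPM against 45, 47.9 and 67.3 CPM (−3.17 ± 0.32, adjusted p = 7.3e-08). Both fell, but use of strand in the counting is not given in the sources used here. Reads of the pair may therefore not be told apart. EIF3C, a core subunit of the translation initiation factor eIF3 (chromosome 16, 28688558 to 28735730), had 38.3, 30.2 and 34.8 CPM in gHNRNPC and 269.5, 178.5 and 165.7 CPM in gCTRL nuclei (−2.57 ± 0.23, adjusted p = 1.5e-08). EIF3C has a near-identical copy, EIF3CL, so the assignment of its reads is uncertain.

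Several secreted proteins were among the falls, as among the rises. UCN2, a peptide of the corticotropin-releasing family, fell by 3.41 ± 0.71 on the log2 scale (adjusted p = 0.0011), and APLN, the peptide apelin, by 3.25 ± 0.54 (adjusted p = 1.3e-04). PROS1, the anticoagulant protein S, was at 0.0, 3.97 and 1.51 CPM in gHNRNPC and 17.1, 18.1 and 21.1 CPM in gCTRL nuclei (−3.28 ± 0.58, adjusted p = 2.1e-04). NDP, the Wnt-receptor ligand norrin, had 1.7, 2.38 and 5.3 CPM against 27.9, 29.1 and 19.8 CPM (−2.98 ± 0.42, adjusted p = 1.4e-05). RTEL1, a telomere helicase, fell by 3.22 ± 0.52 (adjusted p = 8.1e-05), and CENPI, a kinetochore protein, by 2.33 ± 0.33 (adjusted p = 1.4e-05). COL17A1, a hemidesmosome collagen (−2.44 ± 0.38, adjusted p = 6.1e-05), ITGA10, a collagen-binding integrin chain (−2.22 ± 0.33, adjusted p = 2.7e-05), and CAPN2, a calcium-dependent protease (−2.32 ± 0.40, adjusted p = 1.7e-04), act in adhesion. The 20 also held B3GALT5, DR1, INTS1, C11orf80, RETREG1, ABHD14A and DNAJC13, with changes of −2.62 to −2.17, and DNAJC13 lost its call without gCTRL library 3 (adjusted p = 0.067) or gHNRNPC library 3 (adjusted p = 0.066).

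**Figure D1:**
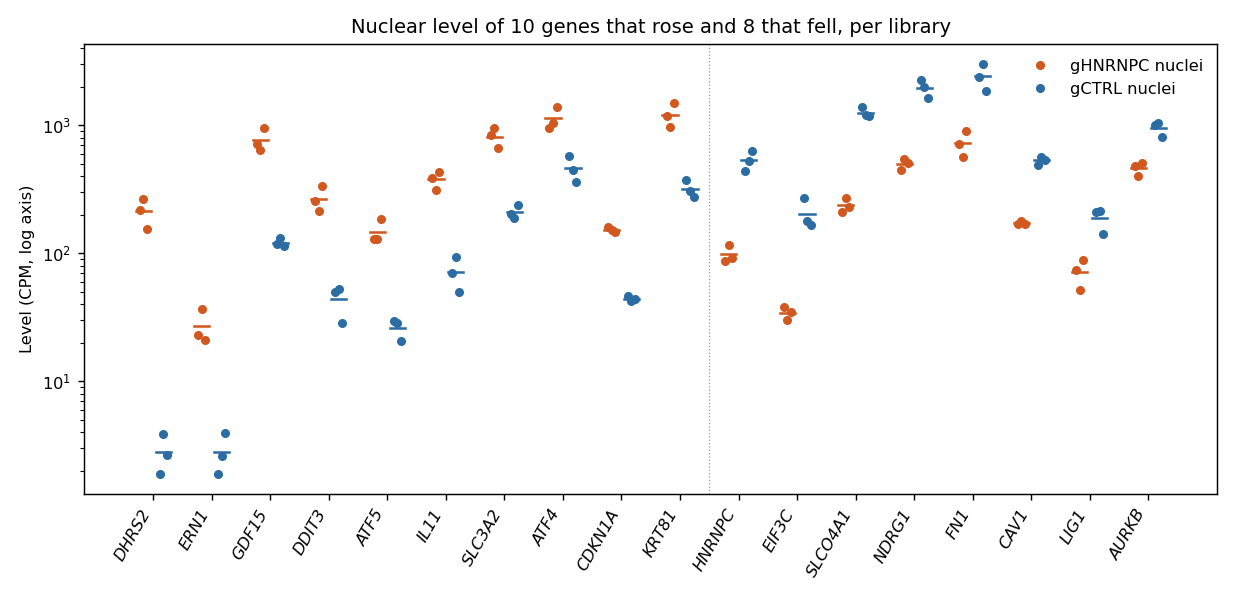
Nuclear levels in CPM (log axis) of 10 genes that rose and 8 that fell, with 1 point per library and a bar at the group mean (gHNRNPC orange and left, gCTRL blue and right, n = 3 each). DHRS2 averaged 212.8 CPM in gHNRNPC and 2.81 CPM in gCTRL nuclei. None of the 18 pairs of groups overlap, but lack of overlap was a condition for genes named as largest rises and falls. Of all genes tested, 29% do not overlap.

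Genes of the integrated stress response rose together. In this response, kinases that sense amino acid shortage, ER stress, double-stranded RNA or heme phosphorylate the initiation factor eIF2, and the transcription factor ATF4 then drives genes of amino acid supply and, with DDIT3, of cell death. Of 22 members tested, 14 rose and the others were not past the threshold. The median change was 1.25 against 0.04 for all genes, and 1.14 with library totals. Using only transcript ends of the same annotation version, 7 rose.

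The transcription factors DDIT3 and ATF5 had the largest changes of the list. DDIT3, also called CHOP (chromosome 12, 57516588 to 57521737), had 254.7, 213.6 and 333.1 CPM in gHNRNPC and 50.1, 52.4 and 28.4 CPM in gCTRL nuclei (2.61 ± 0.23, adjusted p = 7.6e-09). ATF5 had 129.5, 128.6 and 186.2 CPM against 29.8, 28.5 and 20.5 CPM (2.49 ± 0.23, adjusted p = 1.5e-08). ATF4 itself, chosen after its values were seen, had 955.7, 1042.6 and 1402.2 CPM against 578.3, 447.0 and 359.1 CPM (1.30 ± 0.20, adjusted p = 6.5e-05). All gHNRNPC libraries lay above all gCTRL libraries for each of these factors. CEBPG, a partner of ATF4, was not past the threshold (1.70 ± 0.69, adjusted p = 0.10).

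Known targets of ATF4 in amino acid transport and stress were also among the rises, and whether ATF4 drove them was not tested. SLC3A2, the heavy chain of several amino acid transporters, had 838.2, 947.3 and 668.5 CPM in gHNRNPC and 202.3, 190.2 and 237.0 CPM in gCTRL nuclei (1.96 ± 0.20, adjusted p = 7.3e-08). Its light chain partner SLC7A5 rose by 1.72 ± 0.20 (adjusted p = 1.3e-06). CHAC1, a glutathione-degrading enzyme (2.23 ± 0.35, adjusted p = 6.1e-05), SESN2, a leucine sensor that restrains mTORC1 (1.96 ± 0.20, adjusted p = 7.3e-08), and TRIB3, a pseudokinase that inhibits ATF4 and AKT (1.79 ± 0.23, adjusted p = 3.8e-06), rose. STC2, a secreted glycoprotein (2.16 ± 0.54, adjusted p = 0.0065), lost its call without gCTRL library 2 (adjusted p = 0.065). VLDLR, a lipoprotein receptor, was at −1.04 ± 0.46 (adjusted p = 0.13).

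Enzymes of serine, asparagine and one-carbon metabolism and the aminoacyl-tRNA synthetases, many of them ATF4 targets, held rises in a part of their members. Of 13 serine, asparagine and one-carbon genes, 6 rose and 1 fell (median 0.87), and 3 rose without both nuclear libraries numbered 3, an alternative chosen after seeing the data. ASNS, asparagine synthetase, had 373.1, 342.2 and 558.7 CPM in gHNRNPC and 113.5, 99.6 and 81.2 CPM in gCTRL nuclei (2.11 ± 0.20, adjusted p = 3.7e-08), with 99.9% of its reads in entries whose counts were not whole. SLC1A5, the glutamine transporter, had 3283.7, 4864.4 and 2743.0 CPM against 1305.7, 976.8 and 1167.7 CPM (1.66 ± 0.21, adjusted p = 3.7e-06). PYCR1, which makes proline (1.23 ± 0.24, adjusted p = 0.0010), PSAT1 (0.87 ± 0.20, adjusted p = 0.0036) and SHMT2 (0.69 ± 0.19, adjusted p = 0.013), both of the serine and glycine branch, rose by less. Of 17 cytosolic synthetases, 6 rose and the others were not past the threshold (median 0.46), and 2 rose without gCTRL library 2. YARS, for tyrosine, had 160.1, 183.4 and 237.0 CPM in gHNRNPC and 103.4, 82.8 and 52.1 CPM in gCTRL nuclei (1.28 ± 0.23, adjusted p = 3.4e-04), and CARS, for cysteine, had 246.2, 235.8 and 271.0 CPM against 164.9, 148.1 and 136.0 CPM (0.75 ± 0.18, adjusted p = 0.0051). IARS, for isoleucine (1.59 ± 0.58, adjusted p = 0.064), and GARS, for glycine (0.58 ± 0.21, adjusted p = 0.065), were not past the threshold.

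ATF4 with a C/EBP partner is known to bind a composite element whose core reads TGATGCAA. Promoters of 250 bases before to 50 after each start site, from RefSeq (GRCh38.p14), were searched for TGATGCAA and its reverse complement TTGCATCA. The letters were in 304 of 35116 promoters (0.866%). The other shares count genes with the letters in any of their promoters. These were 10 of 596 matched genes that rose (1.68%), 3 of 448 that fell (0.67%) and 54 of 7192 tested (0.751%). By list they were 6 of 14 matched tRNA synthetase genes (42.9%) and 3 of 9 serine, asparagine and one-carbon genes (33.3%). In the integrated stress response they were 4 of 20 genes, and among ribosomal proteins 1 of 48 (2.08%). Many members of the stress response, amino acid and synthetase lists are known ATF4 targets, so the choice of lists favours high shares there. A match is a description of the letters and not a measured binding site. The windows of list genes that held the element and rose are shown with the element in capitals, each read 5′ to 3′ on the strand of its gene.
CHAC1 (chr15:40953251-40953280, plus strand): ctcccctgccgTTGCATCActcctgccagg
SLC1A5 (chr19:46784893-46784922, minus strand): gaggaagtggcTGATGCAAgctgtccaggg
CARS (chr11:3057407-3057436, minus strand): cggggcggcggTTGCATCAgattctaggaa
TARS (chr5:33440956-33440985, plus strand): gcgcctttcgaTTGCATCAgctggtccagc
AARS (chr16:70289675-70289704, minus strand): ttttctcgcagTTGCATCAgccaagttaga
HERPUD1 (chr16:56931955-56931984, plus strand): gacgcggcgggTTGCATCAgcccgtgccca
TARS, for threonine (0.79 ± 0.22, adjusted p = 0.016), AARS, for alanine (1.11 ± 0.30, adjusted p = 0.012), and HERPUD1, an ER membrane protein (0.86 ± 0.26, adjusted p = 0.021), rose, but each lost its call without at least 3 of the 6 nuclear libraries in turn, with adjusted p-values of up to 0.11, 0.089 and 0.16. The element was also present at IARS, SLC1A4, MARS, NARS, JDP2, CEBPG, PPP1R15B and MTHFD1L, which were not called, with changes of −0.15 to 1.70.

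Of 23 tested genes of ER chaperones and the unfolded protein response, 5 rose and the others were not past the threshold (median 0.43), and 3 rose without gCTRL library 1 or without gCTRL library 2. ERN1, the ER stress sensor IRE1α, had 23.0, 36.5 and 21.2 CPM in gHNRNPC and 1.9, 2.59 and 3.96 CPM in gCTRL nuclei (3.23 ± 0.48, adjusted p = 2.0e-05). HSPA5, the main ER chaperone BiP, had 58.8, 56.4 and 80.3 CPM against 12.7, 25.9 and 14.5 CPM (1.88 ± 0.28, adjusted p = 2.7e-05). DERL1, of ER-associated degradation, had 178.0, 155.6 and 150.7 CPM against 35.5, 34.3 and 31.0 CPM (2.26 ± 0.20, adjusted p = 7.6e-09). The DERL1 rise was at the end of a retained-intron transcript, with 193, 184 and 186 reads in gHNRNPC and 38, 37 and 32 reads in gCTRL nuclei (2.72 ± 0.22, adjusted p = 1.2e-09), while its coding end had 16, 12 and 13 reads against 18, 16 and 15 reads (0.07 ± 0.37, adjusted p = 0.94). In the cytosolic heat shock list, 1 of 16 rose, CHORDC1 (1.77 ± 0.48, adjusted p = 0.013), which lost its call without gCTRL library 1 (adjusted p = 0.070) or gHNRNPC library 3 (adjusted p = 0.059).

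**Figure D2:**
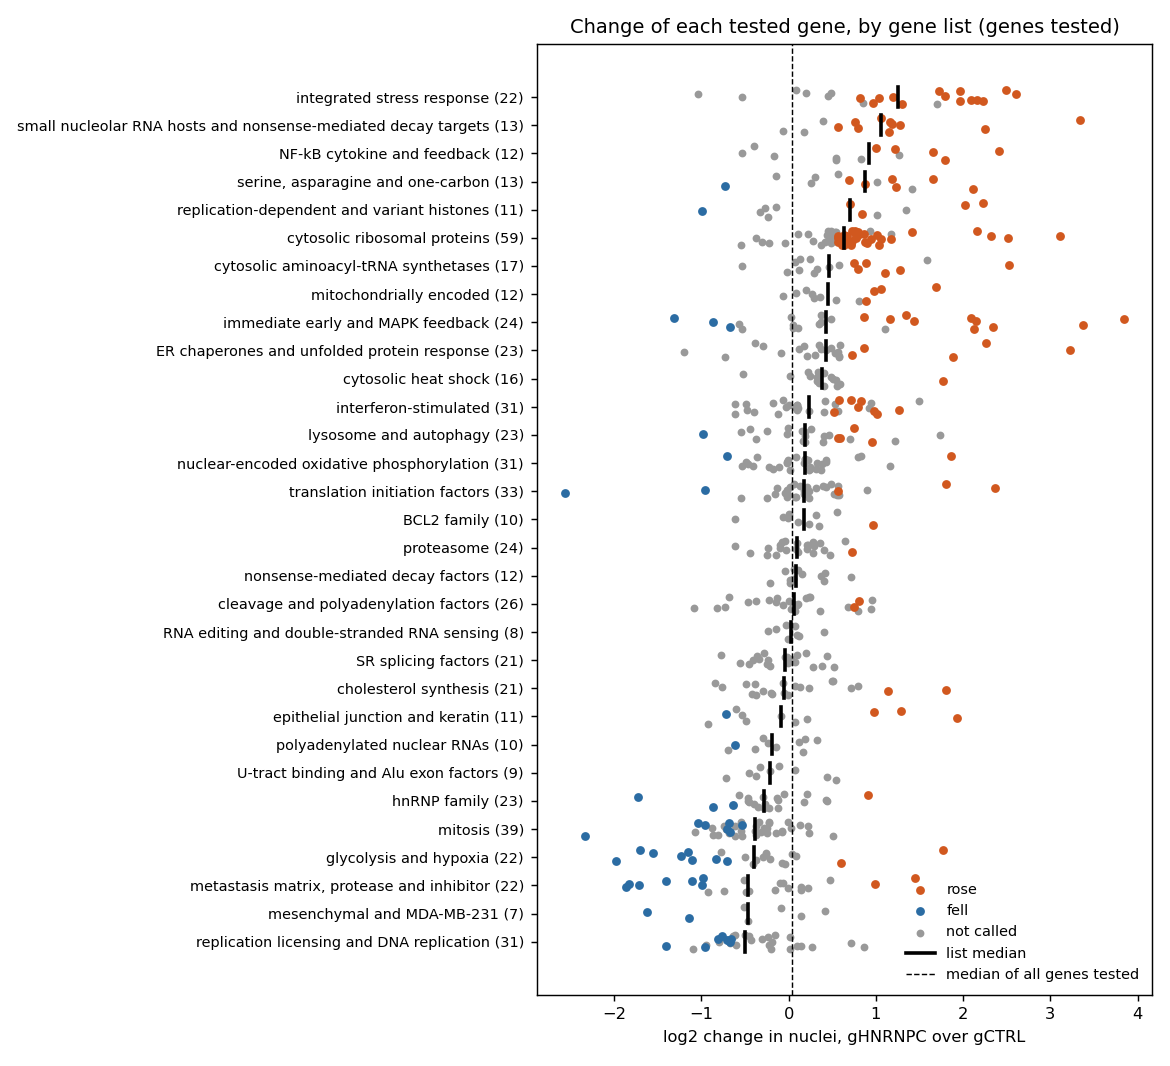
Log2 change in nuclei of every tested member of 31 gene lists, gHNRNPC over gCTRL, ordered by the list median (black bar), with orange points for genes that rose, blue for genes that fell and grey for genes not past adjusted p 0.05. The integrated stress response has the highest median (1.25) and DNA replication the lowest (−0.50), against 0.04 for all genes tested (dashed line).

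Several immediate early genes, which are transcribed within minutes of a stimulus, rose, and 3 feedback inhibitors of the MAPK pathway fell. Of 24 genes, 10 rose and 3 fell (median 0.43). The rises numbered 4 with ends of the same annotation version only and 5 at a mean of at least 50 counts, and 1 fell without both libraries numbered 3. FOSB, an AP-1 subunit, had 28.1, 19.9 and 20.4 CPM in gHNRNPC and 1.27, 1.29 and 1.98 CPM in gCTRL nuclei (3.85 ± 0.48, adjusted p = 1.7e-06). EGR1, a zinc-finger transcription factor, had 108.2, 158.0 and 81.8 CPM against 20.3, 18.8 and 29.7 CPM (2.34 ± 0.33, adjusted p = 4.1e-05). JUNB, another AP-1 subunit, had 174.6, 176.3 and 201.4 CPM against 62.1, 78.3 and 62.7 CPM (1.44 ± 0.18, adjusted p = 3.9e-06). The nuclear receptor NR4A1 had 28 reads over the gHNRNPC libraries and 3 over the gCTRL libraries, a ratio of 11.5 (95% interval 3.56 to 59.3). DUSP1, a phosphatase of stress-activated kinases, rose by 2.15 ± 0.36 (adjusted p = 1.3e-04). Among the falls, DUSP6, a phosphatase of ERK, kept its call with any library left out (−0.87), whereas SPRY4, a Sprouty inhibitor of receptor signalling (−1.31 ± 0.35, adjusted p = 0.012), lost it without gCTRL library 1 (adjusted p = 0.059) or gHNRNPC library 3 (adjusted p = 0.083). DUSP4, a related phosphatase (−0.67 ± 0.19, adjusted p = 0.016), lost it without gCTRL library 3 (adjusted p = 0.068) or gHNRNPC library 1 (adjusted p = 0.066).

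Several cytokine and feedback genes controlled by NF-κB rose, as did CDKN1A and BBC3. IL11, an interleukin of the IL-6 family, had 391.0, 312.1 and 433.1 CPM in gHNRNPC and 70.4, 93.8 and 49.5 CPM in gCTRL nuclei (2.41 ± 0.21, adjusted p = 9.2e-09). NFKBIE, an inhibitor of NF-κB, had 28.1, 30.2 and 23.5 CPM against 11.4, 7.12 and 7.26 CPM (1.65 ± 0.32, adjusted p = 6.7e-04). In this list 5 of 12 rose (median 0.92), and 3 rose without gCTRL library 2 or without gHNRNPC library 2. CDKN1A, the cell cycle inhibitor p21 (chromosome 6, 36676460 to 36687339), had 159.3, 150.9 and 147.6 CPM in gHNRNPC and 46.3, 42.7 and 43.6 CPM in gCTRL nuclei (1.79 ± 0.19, adjusted p = 1.7e-07). BBC3, the pro-apoptotic protein PUMA, had 181.4, 191.4 and 180.9 CPM against 102.1, 75.7 and 105.6 CPM (0.97 ± 0.20, adjusted p = 0.0012). It was the 1 gene of 10 called in the BCL2 family, where 14.8% of all genes tested were called.

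Interferon-stimulated genes gave a weaker pattern. Of 31 tested, 8 rose (median 0.23), with 2 rises without gHNRNPC library 2, 4 without gCTRL library 2, 4 without gHNRNPC library 3 and 5 without gCTRL library 1 or 3. PSMB8, an immunoproteasome subunit, rose in every such fit, with 92.8, 122.3 and 86.3 CPM in gHNRNPC and 47.6, 35.6 and 42.9 CPM in gCTRL nuclei (1.26 ± 0.25, adjusted p = 8.4e-04). MX1, an antiviral GTPase, was at 1.49 ± 0.65 (adjusted p = 0.13). Of 8 genes of RNA editing and double-stranded RNA sensing, ADAR and EIF2AK2 among them, edgeR called 0 at the adjusted threshold and 0 at an unadjusted p of 0.05, and DESeq2 called 0.

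RNAs that nonsense-mediated decay normally removes, among them the hosts of small nucleolar RNAs (SNHG genes), mostly rose in gHNRNPC nuclei. Of 13 tested, 10 rose (median 1.06), with 7 under library totals, 5 without gCTRL library 2 and 6 without gHNRNPC library 2. EPB41L4A-AS1, which hosts a small nucleolar RNA, had 103.9, 127.0 and 177.2 CPM in gHNRNPC and 25.4, 33.0 and 27.7 CPM in gCTRL nuclei (2.25 ± 0.22, adjusted p = 6.9e-08). ZFAS1, another host, had 19 reads over the gHNRNPC libraries and 2 over the gCTRL libraries, a ratio of 11.7 with a 95% interval of 2.83 to 103.9, and lost its call without gCTRL library 2 (adjusted p = 0.091), gCTRL library 3 (0.069) or gHNRNPC library 3 (0.11). SNHG5 had 431.0, 640.8 and 483.8 CPM against 303.8, 273.6 and 343.9 CPM (0.76 ± 0.22, adjusted p = 0.019), and GADD45B, a stress gene and known decay target, had 247.0, 299.4 and 179.4 CPM against 93.2, 95.7 and 134.7 CPM (1.16 ± 0.23, adjusted p = 7.6e-04). Among the 12 factors of the decay pathway itself, edgeR called 0, with 1 at an unadjusted p under 0.05, and DESeq2 called 0 (median 0.08, and −0.03 with library totals).

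Messenger RNAs of cytosolic ribosomal proteins took a larger share of the nuclear counts after the knockdown, 7.92, 8.33 and 10.1% in gHNRNPC nuclei and 6.4, 5.84 and 5.76% in gCTRL nuclei. The groups did not overlap, and the means were 8.79 ± 1.2% and 6.0 ± 0.35% (SD, n = 3 each; two-sided exact permutation p = 0.1, the smallest that 3 against 3 allows). In the cytoplasm the same genes took 19.5 to 21.1% in gHNRNPC and 18.7 to 19.2% in gCTRL. Of 59 tested in nuclei, 32 rose (median 0.63, and 0.51 with library totals), but 17 rose without gCTRL library 2 and 16 without both libraries numbered 3. In the cytoplasm 7 rose and 2 fell (median 0.08). RPL35A had 60.5, 76.2 and 90.1 CPM in gHNRNPC and 17.8, 12.3 and 9.24 CPM in gCTRL nuclei (2.52 ± 0.32, adjusted p = 4.2e-06), and RPL32 had 34.1, 32.6 and 34.1 CPM against 5.71, 7.12 and 7.26 CPM (2.32 ± 0.36, adjusted p = 5.5e-05). RPS12 had 3541.8, 3944.0 and 6284.0 CPM against 2694.5, 1927.7 and 1517.5 CPM (1.17 ± 0.22, adjusted p = 5.8e-04), while its cytoplasmic change was 0.18 (adjusted p = 0.59). All RPS12 and RPS27A reads lay in entries whose counts were not whole, and ribosomal protein genes have many processed copies, so reads may be split among them. For RPL14 the rise was at a retained-intron end, with 63, 56 and 108 reads in gHNRNPC and 13, 17 and 10 reads in gCTRL nuclei (2.81 ± 0.30, adjusted p = 1.4e-07).

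Mitochondrially encoded RNA also took more of the nuclear libraries, 10.6, 9.42 and 10.4% in gHNRNPC and 7.33, 8.41 and 8.8% in gCTRL (two-sided exact permutation p = 0.1, the smallest possible). Of 12 such genes 4 rose (median 0.45), MT-ND5 the most (1.69 ± 0.41, adjusted p = 0.016), with 271.7, 186.6 and 431.5 CPM in gHNRNPC and 80.5, 116.4 and 78.6 CPM in gCTRL nuclei. With 1 nuclear library left out 0 to 2 genes were called, and MT-ND5 lost its call without gCTRL library 1 (adjusted p = 0.066), gCTRL library 3 (0.078) or gHNRNPC library 3 (0.052). The fit without gCTRL library 1, 3 or gHNRNPC library 3 called 0.

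**Figure D3:**
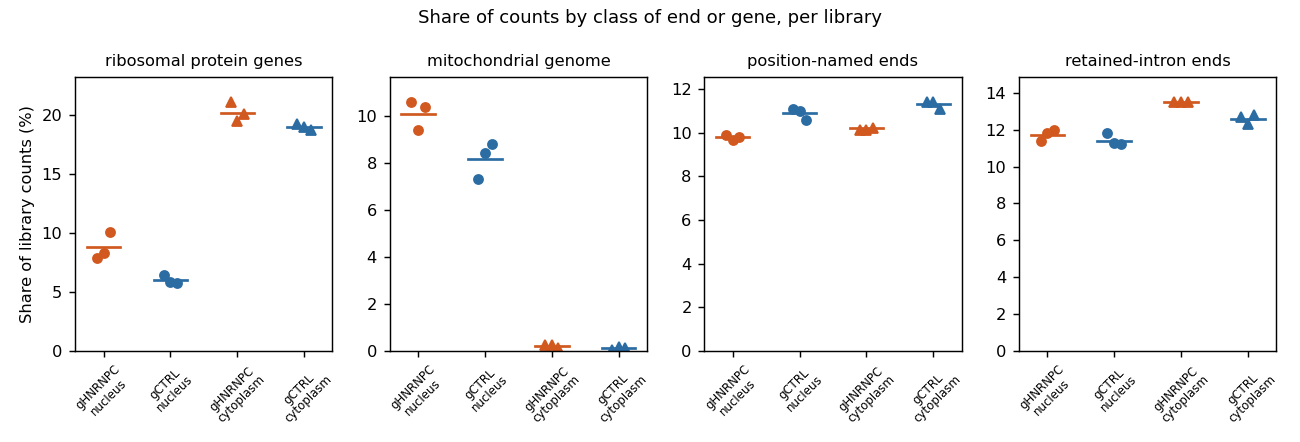
Share of each library's counts (%) for cytosolic ribosomal protein genes, mitochondrially encoded genes, position-named ends and retained-intron ends, with 1 point per library and a bar at the group mean, gHNRNPC before gCTRL in nuclei and in cytoplasm (n = 3 each). Ribosomal protein genes average 8.79% in gHNRNPC and 6.0% in gCTRL nuclei, whereas retained-intron ends overlap at 11.7% and 11.4%.

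Several genes of DNA replication and mitosis fell. Of 31 replication genes, 7 fell (median −0.50), with 10 under library totals but 3 without gHNRNPC library 1 or without gHNRNPC library 3. LIG1, the ligase that joins Okazaki fragments, had 74.1, 51.6 and 88.6 CPM in gHNRNPC and 211.8, 214.8 and 142.6 CPM in gCTRL nuclei (−1.41 ± 0.22, adjusted p = 5.8e-05). UHRF1, which guides maintenance of DNA methylation, had 32.4, 34.1 and 34.8 CPM against 59.0, 73.7 and 64.7 CPM (−0.96 ± 0.21, adjusted p = 0.0023), and RRM1, the large subunit of ribonucleotide reductase, fell by 0.81 ± 0.18 on the log2 scale (adjusted p = 0.0030). Of 39 mitotic genes, 7 fell (median −0.39, and 11 with library totals). AURKB, the kinase of the chromosomal passenger complex, had 482.1, 399.4 and 509.5 CPM in gHNRNPC and 1002.0, 1035.0 and 816.5 CPM in gCTRL nuclei (−1.04 ± 0.17, adjusted p = 1.4e-04). UBE2C, an E2 enzyme of the anaphase-promoting complex, had 221.5, 210.4 and 222.6 CPM against 410.9, 465.1 and 397.4 CPM (−0.96 ± 0.18, adjusted p = 5.1e-04). TOP2A, topoisomerase IIα, fell by 0.68 ± 0.17 (adjusted p = 0.0081). Each of these genes was lower in all gHNRNPC than in all gCTRL libraries. Histone genes were mixed, with 4 of 11 rising and 1 falling, and their near-identical copies can share reads. HIST1H4C, a replication-dependent H4 gene, had 956.6, 925.9 and 698.0 CPM in gHNRNPC and 2217.0, 1445.1 and 1450.2 CPM in gCTRL nuclei (−0.99 ± 0.20, adjusted p = 0.0011), whereas the variant H2AFJ rose (2.23 ± 0.37, adjusted p = 1.4e-04).

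Several glycolysis and hypoxia genes fell, and a pair went the other way. Of 22 tested, 8 fell and 2 rose (median −0.40), and 5 fell with ends of the same annotation version only. NDRG1, a hypoxia-induced gene also known as a metastasis suppressor (chromosome 8), had 450.6, 543.1 and 503.5 CPM in gHNRNPC and 2279.2, 1989.2 and 1650.2 CPM in gCTRL nuclei (−1.98 ± 0.22, adjusted p = 3.9e-07). The glycolytic enzymes GPI (−1.71 ± 0.24, adjusted p = 1.2e-05), PGK1 (−1.55 ± 0.30, adjusted p = 7.2e-04), PFKL (−1.23 ± 0.20, adjusted p = 1.4e-04) and LDHA (−1.11 ± 0.27, adjusted p = 0.0064) fell. The enzyme TPI1 (0.60 ± 0.17, adjusted p = 0.016) and ADM, the vasodilator peptide adrenomedullin, rose. ADM had 57.9, 64.3 and 78.7 CPM in gHNRNPC and 24.1, 16.2 and 18.5 CPM in gCTRL nuclei (1.77 ± 0.27, adjusted p = 5.8e-05).

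Genes of the extracellular matrix, its proteases and their inhibitors divided in the same manner, with 7 of 22 falling and 2 rising (median −0.47). With ends of the same annotation version only 3 fell, and COL6A1 was not called (adjusted p = 0.19). FN1, fibronectin (chromosome 2, 215360440 to 215436172), had 713.0, 566.2 and 907.0 CPM in gHNRNPC and 2371.7, 2992.5 and 1863.4 CPM in gCTRL nuclei (−1.72 ± 0.20, adjusted p = 7.3e-07). COL6A1, a collagen VI chain, had 160.1, 145.3 and 134.8 CPM against 360.2, 417.9 and 388.8 CPM (−1.41 ± 0.18, adjusted p = 3.5e-06). ITGB4, the β4 integrin of hemidesmosomes, fell by 1.11 ± 0.18 (adjusted p = 1.0e-04), and CTSD, the lysosomal protease cathepsin D, by 0.98 ± 0.20 (adjusted p = 0.0011). SERPINE2, a secreted inhibitor of serine proteases, rose (0.99 ± 0.17, adjusted p = 1.9e-04), with 307.5, 360.5 and 339.2 CPM in gHNRNPC and 145.9, 172.1 and 188.1 CPM in gCTRL nuclei.

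CAV1 and S100A4 fell, and 3 keratins rose. In the mesenchymal list 2 of 7 fell (median −0.47). CAV1, the caveola protein, had 168.7, 179.5 and 170.3 CPM in gHNRNPC and 492.7, 566.0 and 538.6 CPM in gCTRL nuclei (−1.62 ± 0.17, adjusted p = 2.5e-07), and S100A4, a calcium-binding protein of motile cells, had 247.9, 253.3 and 330.1 CPM against 667.8, 652.7 and 514.9 CPM (−1.14 ± 0.19, adjusted p = 1.3e-04). Of 11 genes of epithelial junctions and keratins, 3 rose and 1 fell (median −0.09). KRT81, a hair keratin expressed in some breast cancer lines, had 1182.3, 967.2 and 1495.3 CPM against 374.2, 306.6 and 275.3 CPM (1.93 ± 0.20, adjusted p = 1.7e-07), and KRT7 had 386.7, 524.9 and 399.8 CPM against 202.3, 159.8 and 175.6 CPM (1.29 ± 0.19, adjusted p = 2.4e-05). CLDN4, a tight junction protein, fell (−0.72 ± 0.19, adjusted p = 0.011) but lost its call without gHNRNPC library 1 (0.062) or 3 (0.054), and KRT80 (0.98 ± 0.23, adjusted p = 0.0044) without gCTRL library 2 (0.070).

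Among RNA-binding proteins of the hnRNP family, 3 of 23 tested fell, 1 rose and the median was −0.28. That is near the share called over all genes tested (14.8%). HNRNPC itself is listed separately and is not among these. PCBP2, a poly(C)-binding protein, had 16.2, 22.2 and 18.9 CPM in gHNRNPC and 60.9, 57.6 and 73.3 CPM in gCTRL nuclei (−1.73 ± 0.28, adjusted p = 1.1e-04), and HNRNPH1, which binds runs of guanines, had 378.2, 323.2 and 367.2 CPM against 597.4, 747.8 and 613.2 CPM (−0.87 ± 0.17, adjusted p = 9.5e-04). HNRNPDL, a paralog of HNRNPD, rose by 0.91 ± 0.19 (adjusted p = 0.0011), and HNRNPD fell by 0.64 ± 0.22 (adjusted p = 0.048) but not without gCTRL library 3 (0.29), gHNRNPC library 3 (0.20) or gHNRNPC library 2 (0.066). Of 21 SR splicing factors edgeR called 0, with 2 at an unadjusted p under 0.05, and of 9 U-tract binding and Alu exon factors 0, with 1. DESeq2 called 0 in both, and library totals gave 1 fall in each. Of 26 cleavage and polyadenylation factors, CSTF3 (0.81, adjusted p = 0.040) and CPSF3 (0.75, adjusted p = 0.033) rose, and neither was called with library totals or by DESeq2. Among 33 translation initiation factors 3 rose and 2 fell (median 0.17), again near the share over all genes, with 1 rise called without gCTRL library 1 or without gHNRNPC library 3. Of the subunits of eIF2, the factor that the stress kinases phosphorylate, EIF2S2 (β) rose (1.80 ± 0.37, adjusted p = 0.0013) and EIF2S3 (γ) fell (−0.96 ± 0.22, adjusted p = 0.0039).

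The remaining lists gave few calls, set beside 14.8% called over all genes tested. In nuclei 2 of 21 cholesterol synthesis genes rose (median −0.05), TM7SF2, a sterol reductase, among them (1.80 ± 0.28, adjusted p = 6.1e-05), where the change was at a retained-intron end (1.82). Oxidative phosphorylation gave 1 rise and 1 fall of 31 (0 and 4 with library totals), the proteasome 1 rise of 24 and lysosome and autophagy 4 rises and 1 fall of 23, with 1 rise called under library totals and 0 to 2 with 1 nuclear library omitted. Of 10 polyadenylated nuclear RNAs NKTR fell (−0.62 ± 0.19, adjusted p = 0.029).

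The share of genes called differed between kinds of genes. Of 177 antisense genes, 29 rose and 2 fell (16.4% and 1.13%, and 22 and 2 with library totals), and of 206 lincRNA genes 23 rose and 5 fell (11.2% and 2.43%, and 19 and 7 with library totals). Protein-coding genes gave 724 rises and 537 falls among 8521 (8.5% and 6.3%). Antisense genes overlap other genes by definition, and since use of strand in the counting is not given, their reads may come in part from the sense partner. Coding genes that rose had a median span of 14.6 kb and 7 exons at most in a transcript. Those that fell had 42.6 kb and 12 exons, and those not called had 32.6 kb and 10 exons. The median levels were 48.9 CPM in genes that rose, 48.1 CPM in genes that fell and 22.2 CPM in the rest. These are descriptions of the called genes, with no test.

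Counted by single end in place of gene, 1460 of 10915 ends changed (13.4%). Ends of retained-intron transcripts were called at shares near those of coding ones, with 83 rises and 48 falls of 998 (8.32% and 4.81%) against 540 and 327 of 6072 coding ends (8.89% and 5.39%). Ends that the files name only by position, with no transcript, gave 111 rises and 143 falls of 2160 (5.14% and 6.62%). These ends took 9.91, 9.64 and 9.82% of counts in gHNRNPC nuclei and 11.1, 11 and 10.6% in gCTRL nuclei, without overlap (two-sided exact permutation p = 0.1, the smallest possible). Single genes nevertheless changed at retained-intron ends, among them MKNK2, a kinase of the initiation factor eIF4E (1.96 ± 0.24, adjusted p = 2.5e-06), and PCBP2 (−1.69 ± 0.29, adjusted p = 2.1e-04). Other genes given above, among them FN1, LIG1, SERPINE2, HNRNPH1, GADD45B and PSMB8, were also called at ends of this label. FN1 had 836, 713 and 1198 reads at its retained-intron end in gHNRNPC and 3739, 4624 and 2823 reads in gCTRL nuclei. Ends of this label averaged 11.7% of counts in gHNRNPC and 11.4% in gCTRL nuclei, against 13.5% and 12.6% in cytoplasm. The label is that of the annotated transcript, and whether the RNA kept an intron was not tested.

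Use of distal against proximal sites was then compared within genes, for the 2 most used ends of each of 899 genes. In 564 of the pairs 1 end is a transcript end and the other is named by position, and the transcript end was taken as distal to the positions listed in the files under it or under an end before it. That order was not checked against coordinates, because the build of the positions is not established (9.81% lie inside GRCh38 transcript spans). In these pairs a shift to the distal site is therefore a shift to the transcript end and away from the position-named end. Site use changed in 40 genes (4.45%), with 26 shifting to the distal site (2.89%) and 14 to the proximal site (1.56%) in gHNRNPC nuclei. The 564 pairs of assumed order gave 19 of the shifts to the distal and 9 of those to the proximal site. Among the 224 pairs of annotated transcript ends, whose order is known, 6 genes shifted to the distal and 4 to the proximal site. The median change of the distal to proximal ratio within these pairs was 0.13 on the log2 scale, toward the distal site. Their library medians of the distal share averaged 50.4% in gHNRNPC and 51.3% in gCTRL nuclei, so the measures differ in direction. At an unadjusted p under 0.05 there were 152 over all pairs. The count fell to 18 without gCTRL library 2 or without gHNRNPC library 2 and to 20 without gHNRNPC library 1. Over all 899 genes the median change of the distal to proximal ratio was 0.16 on the log2 scale, and 59.3% of genes were above 0. The median share of distal reads was 57.4, 60.9 and 55.8% in the gHNRNPC libraries and 53.1, 54.8 and 57.9% in the gCTRL libraries, which overlap.

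The sites of the genes with the clearest shifts, or with both sites annotated, are shown where the annotation gives the transcript end (GRCh38, last 30 bases on the strand of the transcript, AATAAA or ATTAAA in capitals). No sequence is shown for ends named by position, since their build was not established.
BIRC5 distal (chr17:78225607-78225636, plus strand): gccAATAAAgtctcatgtggttttatctac
SPECC1L distal (chr22:24417710-24417739, plus strand): aggcaaccagataaacttttttgcctgtgc
MBD3 distal (chr19:1573596-1573625, minus strand): ttacaagcAATAAAatgctcctgtctctgc
MBD3 proximal (chr19:1576640-1576669, minus strand): ttcggtgcgtccgctagactttggtgccca
PRMT2 distal (chr21:46664922-46664951, plus strand): cAATAAAtatttttaaatgagtgaatgtca
PRMT2 proximal (chr21:46661241-46661270, plus strand): tcaaaatcaAATAAAttatatttcgtttca
CD44 distal (chr11:35232373-35232402, plus strand): ggctaacATTAAAagactaaaggaaacaga
CD44 proximal (chr11:35229998-35230027, plus strand): tAATAAAtatctgtacttcttcgatcttca
Either hexamer was in the last 30 bases of 56.9% of 5769 tested transcript ends, of 68.6% of 509 ends that rose and of 58.6% of 278 ends that fell. A run of uridines (TTTTT in these letters, on the transcript strand only) was in the last 200 bases of 40.0%, 41.1% and 47.1% of them, in that order.

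The largest shifts to the distal site were in SPECC1L and BIRC5, with the gene as a whole not called. In every gene of this paragraph other than MBD3 the distal site is a transcript end set against an end named by position, and their order is assumed. BIRC5, the mitotic protein survivin, used its distal site in 54.6, 62.7 and 40.4% of reads in gHNRNPC and 13.5, 5.94 and 11.3% in gCTRL nuclei (3.33 ± 0.39, adjusted p = 2.4e-05). Its distal end rose by 2.21 and its proximal end fell by 1.16 on the log2 scale, while the gene changed by −0.25 ± 0.19 (adjusted p = 0.43). SPECC1L, a cytoskeletal cross-linking protein, used the distal site in 59.6, 67.3 and 57.1% against 10.8, 12.2 and 17.9% (3.34 ± 0.48, adjusted p = 2.2e-04). FZR1, an activator of the anaphase-promoting complex, used it in 88.7, 84.4 and 89.5% against 64.0, 60.3 and 57.7% (2.19 ± 0.32, adjusted p = 2.2e-04). NSMF used the distal site in 28.3, 30.6 and 19.6% against 5.21, 10.1 and 7.14% (2.07 ± 0.42, adjusted p = 0.0061). MBD3, a subunit of the NuRD chromatin remodeller, used the end of its coding transcript, 3044 bases beyond that of a decay-annotated transcript, in 7.3, 15.4 and 14.5% of reads in gHNRNPC and 2.35, 3.32 and 4.98% in gCTRL nuclei (1.91 ± 0.40, adjusted p = 0.0068). SLC35C2 (3.11 ± 0.55), EHD1 (2.42 ± 0.50) and TATDN2 (2.07 ± 0.45) shifted the same way, and in these 8 genes the call held with each nuclear library left out in turn.

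Fewer genes moved to the proximal site. For IVNS1ABP and HMGB3 the proximal site is named by position, and for PRMT2 and CD44 both ends are annotated. IVNS1ABP, a Kelch-family protein, used the distal site in 22.2, 23.3 and 48.6% of reads in gHNRNPC and 77.5, 68.2 and 75% in gCTRL nuclei (−2.69 ± 0.54, adjusted p = 0.0061). HMGB3, a chromatin protein, used it in 53.1, 33.3 and 52.8% against 77.6, 82.1 and 71.8% (−1.95 ± 0.37, adjusted p = 0.0043), and its total also fell (−0.73, adjusted p = 0.019). PRMT2, an arginine methyltransferase, used the distal coding end in 91.7, 83.1 and 93.5% against 96.3, 97.8 and 98.3% (−2.04 ± 0.48, adjusted p = 0.015), with the retained-intron end 3681 bases before it higher by 1.53. Its call ended without gCTRL library 2 (adjusted p = 0.067) or gHNRNPC library 2 (adjusted p = 0.093). CD44, the hyaluronan receptor, used its distal coding end in 40.5, 31.1 and 45.2% of reads in gHNRNPC and 64.8, 56.8 and 56.6% in gCTRL nuclei (−1.21 ± 0.31, adjusted p = 0.023). That call did not hold without gCTRL library 1 or 2 or gHNRNPC library 1 or 2 (adjusted p = 0.062 to 0.13), nor between the most distant ends in place of the most used (adjusted p = 0.98).

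**Figure D4:**
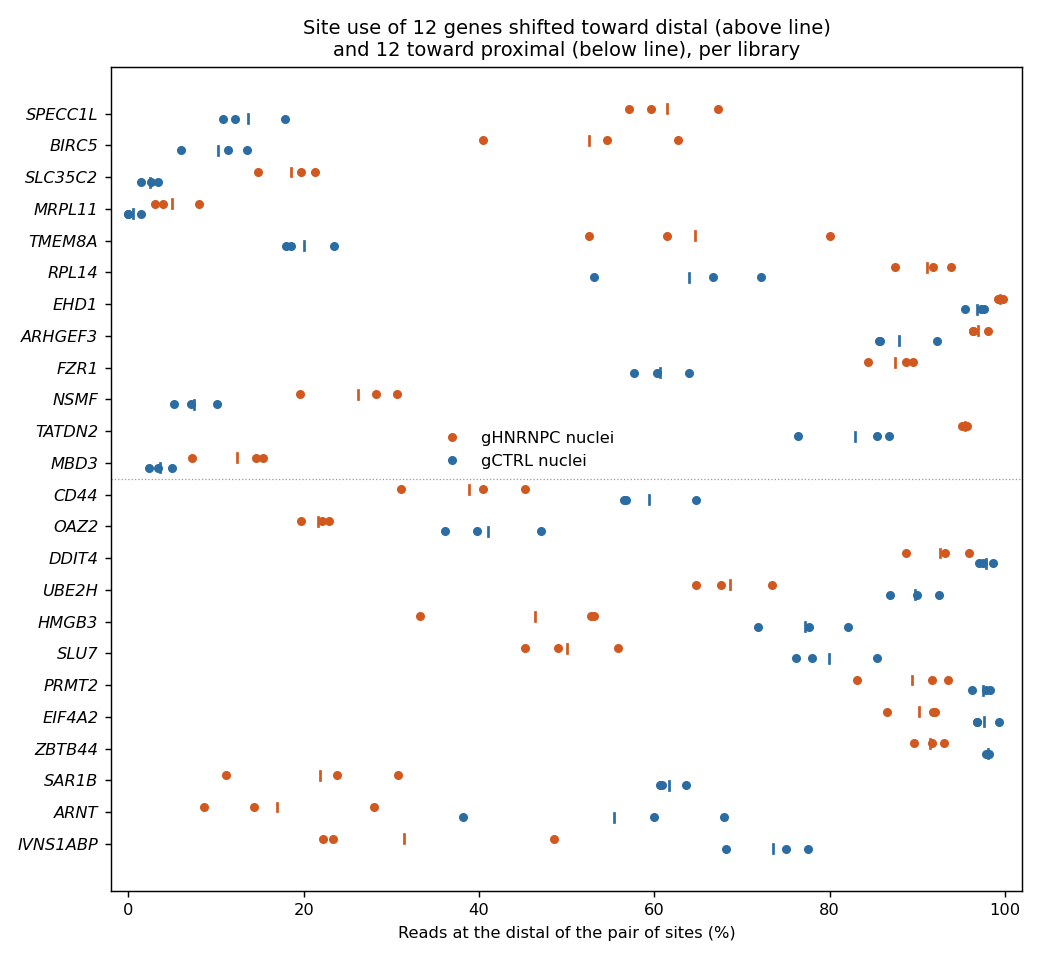
Share of reads (%) at the distal of the 2 most used sites in 24 genes with changed site use, with 1 point per nuclear library and a bar at the group mean (gHNRNPC orange and above, gCTRL blue and below, n = 3 each). Genes above the dotted line moved to the distal site, with BIRC5 at 40.4 to 62.7% in gHNRNPC and 5.94 to 13.5% in gCTRL nuclei, and genes below it to the proximal site. Where a transcript end is set against an end named by position, as in BIRC5, the order is assumed.

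Expression changes in nuclei ran parallel to those in cytoplasm for most called genes. In the cytoplasm 24.7% of the same genes were called, 1149 higher and 1163 lower. In all, 833 genes were called in both fractions, each with the same sign, 550 in nuclei and not in cytoplasm, and 1479 in cytoplasm and not in nuclei. Of the nuclear rises 781 of 827 were above 0 in the cytoplasm, and of the falls 522 of 556 were below 0. Pearson's r between the changes was 0.637 over 9351 genes, as a description, since genes are not independent and the values share a fit. A gene called in one fraction and not in the other is not thereby shown to differ. Tested directly, the change differed between fractions in 2 genes (0.0214%), with 982 at an unadjusted p under 0.05 and 43 by DESeq2.

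FKBP9, a peptidyl-prolyl isomerase of the ER (chromosome 7, 32957404 to 33006931), had 167.8, 170.7 and 137.8 CPM in gHNRNPC and 127.5, 135.2 and 147.2 CPM in gCTRL nuclei (0.22 ± 0.17, adjusted p = 0.46). In the cytoplasm it had 95.5, 99.7 and 99.4 CPM in gHNRNPC and 27.7, 25.9 and 25.1 CPM in gCTRL (1.90 ± 0.20, adjusted p = 9.8e-08), so the nuclear change was smaller by 1.68 ± 0.26 (adjusted p = 0.0066). EXOC3-AS1, an antisense RNA (chromosome 5, 441498 to 443160), had 89.4, 111.2 and 124.9 CPM in gHNRNPC and 132.5, 112.6 and 89.1 CPM in gCTRL nuclei (−0.04 ± 0.20, adjusted p = 0.93). In the cytoplasm it had 47.2, 41.9 and 41.5 CPM against 137.0, 156.2 and 131.3 CPM (−1.70 ± 0.20, adjusted p = 6.0e-07). The difference of 1.66 ± 0.28 (adjusted p = 0.011) was not past the threshold without gCTRL nuclear library 2 (adjusted p = 0.052) or gHNRNPC cytoplasmic library 3 (adjusted p = 0.075). All reads of both genes lay in entries whose counts were not whole, so part of their assignment was estimated.

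**Figure D5:**
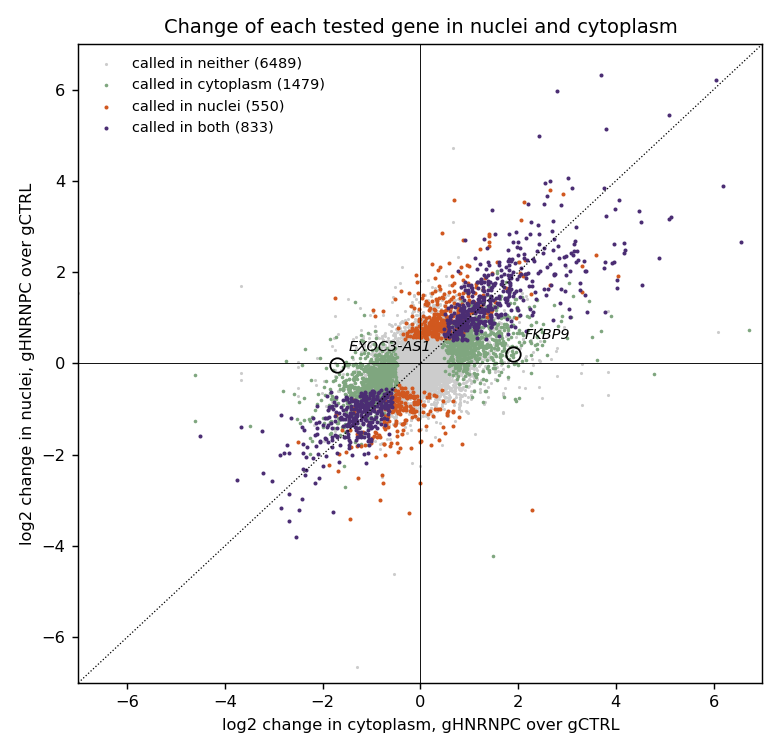
Log2 change of gHNRNPC over gCTRL in cytoplasm (x axis) and in nuclei (y axis) for each of 9351 genes, coloured by where it was called, with the dotted line at equal change. The 833 genes called in both fractions lie in the quadrants of equal sign, and FKBP9 and EXOC3-AS1, circled, are the 2 genes whose change differed between fractions.

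Genes called for site use in nuclei shifted in the same direction in the cytoplasm, where more genes were called. Pearson's r between the changes was 0.569 over 899 genes, as a description. Of the 40 genes with changed site use in nuclei, 34 were also called in the cytoplasm, and all 40 had the same sign there. The cytoplasm had 98 shifts to the distal and 29 to the proximal site (14.1% of 899 genes), with a median of 0.37 against 0.16 in nuclei. No gene differed between fractions by edgeR at the adjusted threshold (0 of 899, 0%, with 62 at an unadjusted p under 0.05, and 0 by limma). Of the 62, the nuclear minus the cytoplasmic change was above 0 in 16 and below 0 in 46. A gene not called there is not thereby shown to change alike. BIRC5 changed by 3.44 in cytoplasm and 3.33 in nuclei, whereas FZR1 changed by 0.40 ± 0.29 in cytoplasm (adjusted p = 0.38) and 2.19 in nuclei, a difference of 1.79 ± 0.44 that was not past the threshold (adjusted p = 0.40).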

How the data were processed

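The deposited table holds, per the file headers and the values, estimated counts that the authors made for each transcript end or genomic position, not normalized and in part not whole. Salmon 0.14.1 and the hg38 build are named in the submitters' processing notes; use of strand is not given in the sources used here. Entries were summed per gene through GENCODE 29 (66115 of 71604 transcript ends matched, and 23320 position-named entries were added to the transcript listed above them), rounded to whole counts and kept with edgeR's filterByExpr; entries with no gene held 1.72 to 2.11% of reads in nuclear and 0.971 to 1.2% in cytoplasmic libraries. edgeR 4.0.16 (R 4.3.3, quasi-likelihood test, TMM scaling, robust) was fitted over all 12 libraries of the knockdown table, with groups as labelled, and calls are at an adjusted p of 0.05. The biological coefficient of variation was 18.8%. Site use was tested as the interaction of site and group with a term for each library, on the 2 most used ends of a gene. Alternatives used limma 3.58.1 and DESeq2 1.42.0. Tests were checked on simulated counts. Genes named are the 20 largest rises and falls past the threshold without overlap, with at least 10 CPM in the higher group, under 20% of reads in non-whole entries and no clone name, the 12 largest site shifts each way, and in each list up to 6 called and 2 other members of largest change. Genes beyond that rule, chosen after their values were seen, are ATF4, DUSP4, TRIB3, SLC3A2, SLC7A5, JUNB, DUSP6, SPRY4, SNHG5, RPS27A, TPI1, LDHA, SERPINE2, MKNK2, ADAR and EIF2AK2. The members and lists were chosen with earlier results of these data known. Intervals cover counting error only. Some results are not reported here.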

Additional observations from a re-analysis of the deposited data

Results flagged for a closer look

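The change of FKBP9 differed between fractions, by −1.68 ± 0.26 (nuclei minus cytoplasm, log2, adjusted p = 0.0066 by edgeR). The change of EXOC3-AS1 differed by 1.66 ± 0.28 in the other direction (adjusted p = 0.011). What lies behind either difference was not tested.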

How the results depend on the processing

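In place of 1383 genes, 858 were called at a mean of at least 50 counts, 817 with transcript ends of the same annotation version only, and 542 with the nuclear libraries alone and a replicate block. With 1 nuclear library left out 878 (without gCTRL library 2) to 1150 were called, and up to 1510 with a cytoplasmic one left out. In place of 40 genes with changed site use, 23 were called with ends of the same version, 25 at a site mean of at least 50 counts, and 18 to 42 with 1 nuclear library left out, up to 50 with a cytoplasmic one. For the difference between fractions in expression, in place of 2 genes, DESeq2 gave 43, library totals 10, no filter 36, transcript ends only 4, the replicate block 1 and leaving out 1 library 1 to 14. For site use, in place of 0, a site mean of at least 50 counts gave 2 and leaving out 1 library 0. Single-end calls, 1460 in all, numbered 959 to 1214 with 1 nuclear library left out.

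Replicate numbers did not pair the nuclear samples, since the deviations of same-numbered libraries correlated at −0.046, −0.162 and −0.227. A replicate block on all 12 libraries gave 1113 expression calls, 35 site-use calls and 1201 single-end calls, and 0 for the difference in site use. Of 156 named genes, 93 were called in every setting that gave a value for them, and of 40 site-use genes 11. Settings that filtered a gene out were not counted for that gene. No direction turned round. Without both nuclear libraries numbered 3, an alternative chosen after seeing the data, 965 genes and 35 site shifts were called. Libraries of 1.23 to 1.64 M counts limit what can be seen for genes of a few CPM.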
